A study of Mus musculus with 6 samples.

Results

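The genes described here sense damaged DNA, stop the cell cycle in response, or repair the damage. A list of 34 such genes was matched by symbol to the array's annotation, over probe sets that carry 1 symbol, and where a gene had several, the one with the highest mean signal across the 6 arrays stood for it. Of the 34 genes 33 were found, among 18193 genes on the array in all. The recombination gene Xrcc2 was not matched in the annotation used and is not analysed here. RNA had been taken by laser capture from frozen, stained sections of mouse bladder urothelium and hybridised to Affymetrix 3' expression arrays, and all values are log2 signals after RMA, a method that brings all arrays to a common distribution. The 6 arrays fell into 3 groups of 2: invasive carcinoma, carcinoma in situ (a flat, high-grade lesion that stays within the epithelium) and normal urothelium. Both lesions came from mice of genotype H-ras+/-, p53-/-, and the normal urothelium from wild-type mice. All mice were of the FVB/N strain and 8 months old. The promoter that drives the H-ras transgene is not given in the sources used here. Genotype and lesion changed together against normal urothelium and cannot be told apart there, whereas the lesions had the same genotype. No label ties a captured region to an animal, so p-values measure only how far these arrays lie apart, and that spread may be technical.

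A broken DNA end is bound by sensor proteins that switch on the kinase Atm, while single-stranded DNA at a stalled replication fork switches on the related kinase Atr, and both kinases phosphorylate p53 and the checkpoint kinases that hold the cell cycle. Breaks are then repaired by homologous recombination, which copies the intact sister chromatid and is used mainly after replication, or by end joining, which religates the ends in any phase. Other pathways remove damaged bases, bulky adducts, mispaired bases and crosslinks between the strands. Many recombination and checkpoint genes are transcribed mostly in dividing cells, and p53, which the lesions lack, is a main target of Atm and Atr.

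The arrays had medians between 6.07 and 6.14 on the log2 scale over all probe sets. The urothelial markers averaged 10.6 to 11.0 on the invasive arrays, 11.7 to 11.8 on the in situ arrays and 11.7 to 12.4 on the normal arrays over 17 genes. The normal arrays were the least alike: 7 of the 33 repair genes (21.2%) lay over 2-fold apart between them, against 13.7% of all genes, and 5 of these 7 were lower in normal array 2. Between the invasive arrays and between the in situ arrays 0 repair genes lay that far apart, against 3.21% and 0.0440% of all genes. The gap between the 3' and 5' control probe sets of actin, which widens as RNA breaks down, was 2.25 and 2.45 log2 units on the invasive arrays, 1.43 and 0.97 on the in situ arrays, and 1.60 and 4.52 on the normal arrays. Normal array 2 thus had the widest gap of the 6. Xist, transcribed from the inactive X chromosome, and the Y-linked gene Kdm5d read 10.28 and 6.58 on invasive array 1 and 13.37 and 7.62 on normal array 2, so both signals were present on these arrays. On invasive array 2 Xist read 6.43 and Kdm5d 5.96, and on normal array 1 they read 6.85 and 8.28. On the in situ arrays Xist read 13.17 and 13.33 and Kdm5d 2.90 and 2.84. The in situ arrays thus differed from the arrays of both other groups in Y-linked signal, and in comparisons with carcinoma in situ this cannot be told apart from the lesion.

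Both lesions were compared with normal urothelium, the step the submitters call tumour genesis, and with each other, the step they call progression. Of the 33 repair genes 3 were higher in both lesions: Rad51ap1, Clspn and Rad54l. That is 9.09%, where 12.6% of all genes rose in invasive carcinoma and 5.74% in carcinoma in situ. Of Clspn and Rad54l only the brightest probe set passed the test. In invasive carcinoma the kinase gene Atr and the Fanconi anaemia gene Fancd2 were lower as well (6.06%, where 7.46% of all genes fell). Most repair genes did not pass the test in any comparison.

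With limma, and p-values adjusted by Benjamini-Hochberg across all 18193 genes and called under 0.05, 3 of 33 repair genes rose and 2 fell in invasive carcinoma against normal urothelium, where 12.6% of all genes rose and 7.46% fell. Carcinoma in situ had 3 risen and 0 fallen against normal urothelium, where 5.74% of all genes rose and 3.04% fell. An unadjusted limma p under 0.05 was found there for 14 of 33 repair genes and for 4438 of all 18193 genes. In invasive carcinoma against normal urothelium it was found for 15 repair genes and 5977 of all genes. Between invasive carcinoma and carcinoma in situ limma called 0 of 33, where 5.49% of all genes were called either way. An unadjusted p under 0.05 was found for 2 repair genes and for 3342 of all 18193 genes. The spread used for this comparison pools all 3 groups, the normal arrays included. The 33 genes thus had 9.09% rising and 6.06% falling in invasive carcinoma and 9.09% rising in carcinoma in situ. The median change of the 33 genes was 0.13 in invasive carcinoma against normal urothelium (all genes 0.0002), -0.11 in invasive carcinoma against carcinoma in situ (all genes -0.027) and 0.17 for carcinoma in situ against normal urothelium (all genes 0.007). Over the values of the 18193 genes, 1 probe set each, the array medians were 7.20 and 7.17 in invasive carcinoma, 7.02 and 7.04 in carcinoma in situ and 6.92 and 6.91 in normal urothelium. After each array was centred on this median, which moved the median change of all genes to -0.27, -0.19 and -0.11 in these comparisons, the repair genes had a median of -0.14 in invasive carcinoma against normal urothelium, and 3 rose and 5 fell there. The share of all genes called after centring is not given here, so these counts do not set repair genes apart from other genes. Both comparisons with normal urothelium share the normal arrays.

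The counts rested on few arrays. Leaving out an array left 1 array in its group and changed the estimated spread of every gene. The share of all genes called is not given for these fits, so their counts do not set repair genes apart from other genes. In invasive carcinoma against normal urothelium 10 repair genes were called without normal array 1 and 10 without normal array 2, 3 without invasive array 1 and 1 without invasive array 2, and 3 without either in situ array. In carcinoma in situ against normal urothelium 12 were called without normal array 1 and 6 without normal array 2, but limma called 0 without in situ array 1 and 0 without in situ array 2 (6 with an unadjusted p under 0.05 in each case). Between the lesions 2 were called without either normal array. Normal array 2 and invasive array 1 held Xist and Kdm5d signal at once. With both left out, only the in situ pair remained to set the spread. That pair was the closest, with a standard deviation of 0.22 for its log2 differences over all genes. The invasive pair had 0.42 and the normal pair 0.69. Calls in that fit are therefore not counted in this paragraph. The fit is 1 of the 19 alternatives, so it enters the tallies over alternatives given below.

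**Figure D1:**
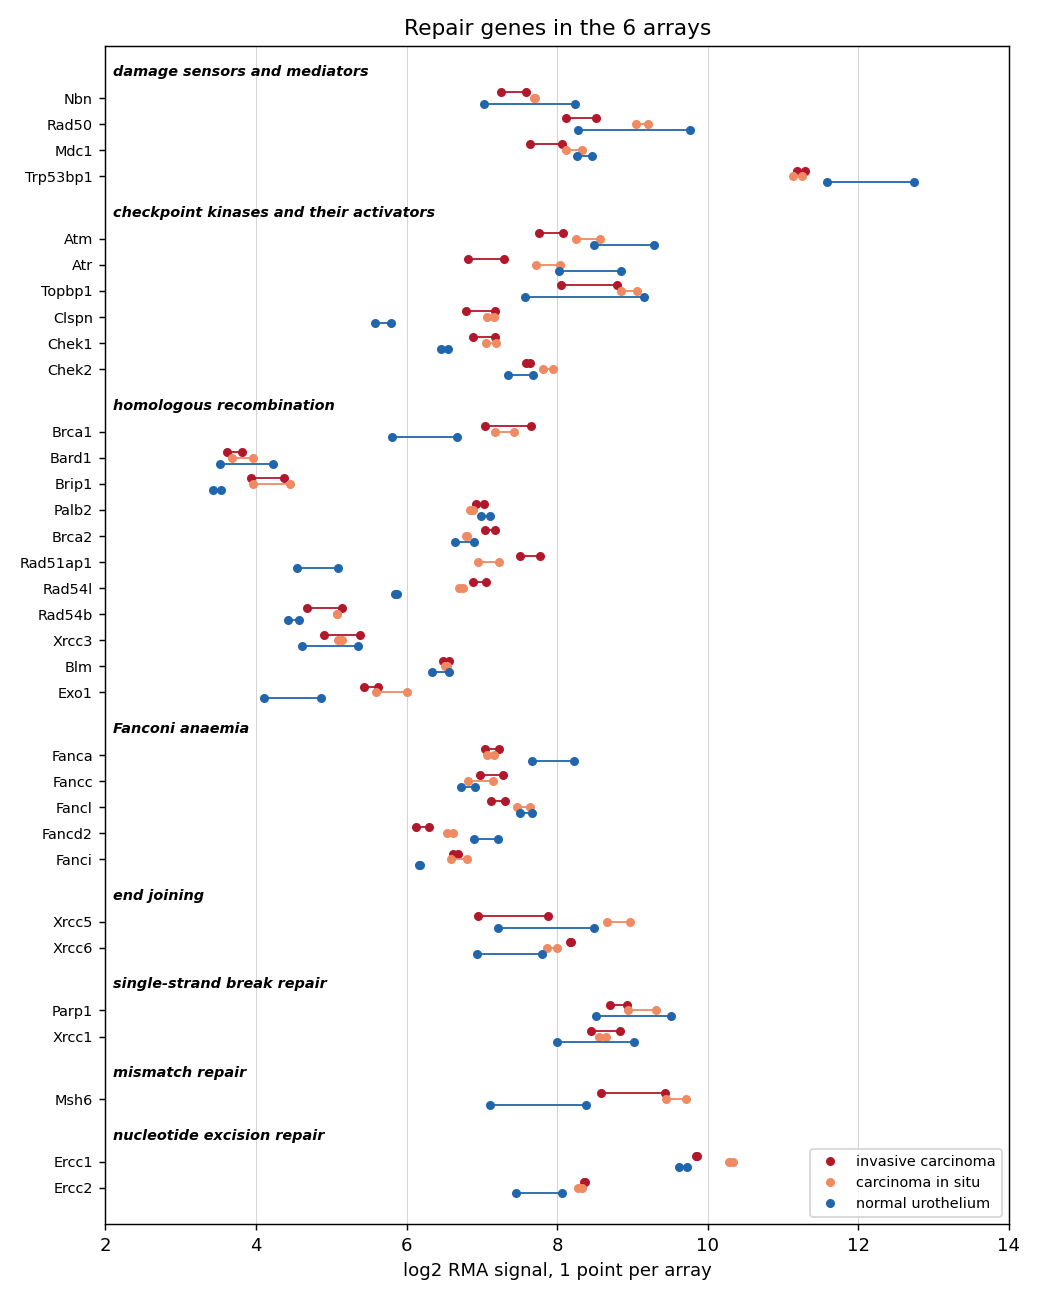
Log2 RMA signal of the 33 repair genes, grouped by role, with 1 point per array and a line joining the 2 arrays of a group (invasive carcinoma above, carcinoma in situ in the middle, normal urothelium below). The normal arrays lie far apart for genes such as Topbp1, Rad50 and Msh6, while Rad51ap1, Clspn and Rad54l lie lower in both normal arrays than in all 4 lesion arrays.

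The checkpoint kinases and the proteins that activate them make up 6 of the genes. Clspn encodes claspin, the adaptor through which Atr reaches its target Chek1. It read 6.79 and 7.17 on the invasive arrays, 7.16 and 7.07 on the in situ arrays and 5.59 and 5.79 on the normal arrays. All 4 lesion arrays lay above both normal arrays, and the lesions overlapped. Clspn rose by 1.29 ± 0.20 (SE, n = 2 arrays per group) on the log2 scale in invasive carcinoma against normal urothelium (2.45-fold, adjusted p = 0.00925) and by 1.42 ± 0.20 in carcinoma in situ against normal urothelium (2.69-fold, adjusted p = 0.0152). The first call held in 15 of 18 alternatives and was lost, among others, without invasive array 2. The second held in 13 of 18 and was lost, among others, without either in situ array. In captured tissue, fewer cells of a type and less RNA per cell cannot be told apart.

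Atr encodes the kinase that answers to stalled replication forks. It read 7.30 and 6.81 on the invasive arrays, 7.72 and 8.03 on the in situ arrays, and 8.85 and 8.02 on the normal arrays. The invasive arrays lay below all others, while the in situ arrays overlapped the normal ones. Atr fell by 1.38 ± 0.34 in invasive carcinoma against normal urothelium (2.61-fold, adjusted p = 0.0386). The call held in 11 of 19 alternatives and was lost, among others, without either in situ array and without either invasive array. In carcinoma in situ against normal urothelium its difference of -0.56 ± 0.34 did not pass (adjusted p = 0.387). Atr has another 2 probe sets, and with all probe sets tested these fell by 1.79 and 1.64 in invasive carcinoma against normal urothelium and by 1.35 and 1.81 for carcinoma in situ against normal urothelium.

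Atm, the kinase that answers to double-strand breaks, read 8.07 and 7.76 on the invasive arrays, 8.24 and 8.57 on the in situ arrays, and 9.29 and 8.48 on the normal arrays. Both invasive arrays lay below both normal arrays, but the difference of -0.97 ± 0.31 missed the threshold (adjusted p = 0.0866). Chek1, the kinase downstream of Atr that delays mitosis, read 7.17 and 6.88 on the invasive arrays, 7.18 and 7.06 on the in situ arrays and 6.55 and 6.46 on the normal arrays. All lesion arrays lay above both normal arrays, with differences of 0.52 ± 0.18 for invasive carcinoma (adjusted p = 0.100) and 0.62 ± 0.18 for carcinoma in situ (adjusted p = 0.0985), and neither passed. Chek2, the kinase downstream of Atm, differed from normal urothelium by 0.10 (95% interval -0.35 to 0.55) in invasive carcinoma and by 0.37 (-0.08 to 0.83) in carcinoma in situ. Topbp1, which activates Atr, read 8.79 and 8.05 on the invasive arrays, 8.85 and 9.06 on the in situ arrays, and 9.15 and 7.57 on the normal arrays, so that the normal arrays spanned the others.

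The 4 damage sensors and mediators had 0 calls, and the normal arrays lay over 2-fold apart for Nbn, Rad50 and Trp53bp1. Nbn and Rad50, subunits of the complex that binds broken ends first, read 7.03 and 8.28 on normal array 2, against 8.24 and 9.76 on normal array 1. Rad50 read 8.51 and 8.11 on the invasive arrays and 9.05 and 9.20 on the in situ arrays, and the lesions did not overlap. That difference, -0.81 ± 0.48, missed the threshold (adjusted p = 0.477), although it was called from the 4 lesion arrays alone. Its error in the main fit pools the spread of all groups. Rad50 had a standard deviation of 1.05 in normal urothelium, 0.28 in invasive carcinoma and 0.11 in carcinoma in situ. Mdc1, a scaffold on chromatin beside breaks, differed from normal urothelium by -0.51 ± 0.21 in invasive carcinoma (adjusted p = 0.160). Trp53bp1, which binds chromatin at breaks and favours end joining, was lower on all 4 lesion arrays (11.30 and 11.18 in invasive carcinoma, 11.13 and 11.25 in carcinoma in situ) than on the normal arrays (11.58 and 12.74), with adjusted p = 0.157 for invasive carcinoma and 0.189 for carcinoma in situ. With all probe sets tested, 1 further Trp53bp1 probe set fell by 1.08 in invasive carcinoma against normal urothelium.

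Homologous recombination held 11 measured genes, of which 2 rose and 0 fell in each lesion against normal urothelium. Rad51ap1 encodes a DNA-binding protein that promotes the pairing of a broken strand with its intact copy. Its signal was 7.50 and 7.77 on the invasive arrays, 7.23 and 6.95 on the in situ arrays and 5.09 and 4.55 on the normal arrays. The 3 groups did not overlap, with invasive carcinoma on top. Rad51ap1 rose by 2.82 ± 0.25 in invasive carcinoma against normal urothelium (7.05-fold, adjusted p = 0.00175), the largest change among the 33 genes in any of the comparisons, and by 2.27 ± 0.25 in carcinoma in situ against normal urothelium (4.83-fold, adjusted p = 0.00851). Between the lesions the difference of 0.55 (95% interval -0.06 to 1.15) did not pass (adjusted p = 0.328). The rise in invasive carcinoma was called in all 18 alternative settings in which the gene was tested, with an adjusted p between 4.92e-06 and 0.0441, but over the mean of its probe sets it was 1.42, against 2.82 for the brightest. The rise in carcinoma in situ was called in 14 of 18, with an adjusted p of up to 0.135, and was 1.27 over the mean of probe sets.

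Rad54l encodes a motor protein of the strand exchange step. It read 6.88 and 7.05 on the invasive arrays, 6.69 and 6.75 on the in situ arrays and 5.85 and 5.88 on the normal arrays. The groups did not overlap. Rad54l rose by 1.10 ± 0.16 in invasive carcinoma against normal urothelium (2.15-fold, adjusted p = 0.00758) and by 0.86 ± 0.16 in carcinoma in situ against normal urothelium (1.81-fold, adjusted p = 0.0319). The other 3 probe sets of Rad54l differed by -0.40 to 0.07 in invasive carcinoma against normal urothelium and had no call, and over the mean of its probe sets the gene differed by 0.15 there and by 0.10 in carcinoma in situ against normal urothelium, neither called. The call in carcinoma in situ held in 8 of 18 alternatives and was lost without either in situ array (adjusted p = 0.253 and 0.264) and without either invasive array (0.0627 each). In invasive carcinoma it was lost without invasive array 2 (0.0502).

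Of the called genes, the 3 that rose and Atr were picked from these same values, and Fancd2, which also fell, was left out. Rising and falling genes are thus not compared here. The regions just upstream of the picked genes are shown because the rising genes moved together and Atr moved the other way. They are the 250 bases before each start in RefSeq on the GRCm38.p6 build, written 5′ to 3′ along the gene, with the pentamer CCAAT in capitals (ATTGG where it lies on the other strand).
Rad51ap1, chr6:126939588-126939837, minus strand: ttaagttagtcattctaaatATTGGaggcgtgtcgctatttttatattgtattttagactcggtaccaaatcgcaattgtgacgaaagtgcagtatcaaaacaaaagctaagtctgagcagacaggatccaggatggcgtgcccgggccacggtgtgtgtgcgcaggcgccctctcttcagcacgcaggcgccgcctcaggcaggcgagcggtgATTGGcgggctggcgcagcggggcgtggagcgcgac
Clspn, chr4:126556730-126556979, plus strand: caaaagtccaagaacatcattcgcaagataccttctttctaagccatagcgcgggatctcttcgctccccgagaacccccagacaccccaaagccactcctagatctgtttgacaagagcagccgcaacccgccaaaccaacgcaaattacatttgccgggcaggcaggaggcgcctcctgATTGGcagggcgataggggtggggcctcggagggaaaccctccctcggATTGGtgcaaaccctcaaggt
Rad54l, chr4:116123691-116123940, minus strand: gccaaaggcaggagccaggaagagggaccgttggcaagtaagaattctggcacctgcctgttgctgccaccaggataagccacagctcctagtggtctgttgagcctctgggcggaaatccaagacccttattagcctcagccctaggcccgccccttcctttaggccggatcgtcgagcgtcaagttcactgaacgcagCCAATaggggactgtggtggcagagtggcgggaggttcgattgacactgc
Atr, chr9:95857347-95857596, plus strand: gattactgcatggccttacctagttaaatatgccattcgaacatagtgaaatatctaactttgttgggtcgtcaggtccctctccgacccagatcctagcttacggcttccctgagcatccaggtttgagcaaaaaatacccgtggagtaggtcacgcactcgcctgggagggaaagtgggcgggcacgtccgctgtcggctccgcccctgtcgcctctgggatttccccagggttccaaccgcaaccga

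CCAAT, searched on both strands, was found in these windows of Rad51ap1 (36 to 32 and 230 to 226 bases before the start), Clspn (21 to 17 and 69 to 65) and Rad54l (50 to 46). Atr held none of the motifs searched. Of 28 repair genes with such a window 16 held CCAAT (57.1%), against 39.4% of 14367 genes of the array with a window. The E2F octamers TTTCGCGC, TTTGGCGC and TTTCCCGC, the letters of sites bound by the cell cycle factors of that name, were found in 6 of the 28 (21.4%), namely Mdc1, Topbp1, Chek2, Bard1, Brca2 and Xrcc6, against 2.73% of the genes of the array. None of these 6 was called in any comparison with normal urothelium. TTTGAA, a sequence of many mitotic promoters, was found in 1 of 28 (3.57%, Bard1), against 14.1%. These matches describe letters in a window and nothing about binding.

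**Figure D2:**
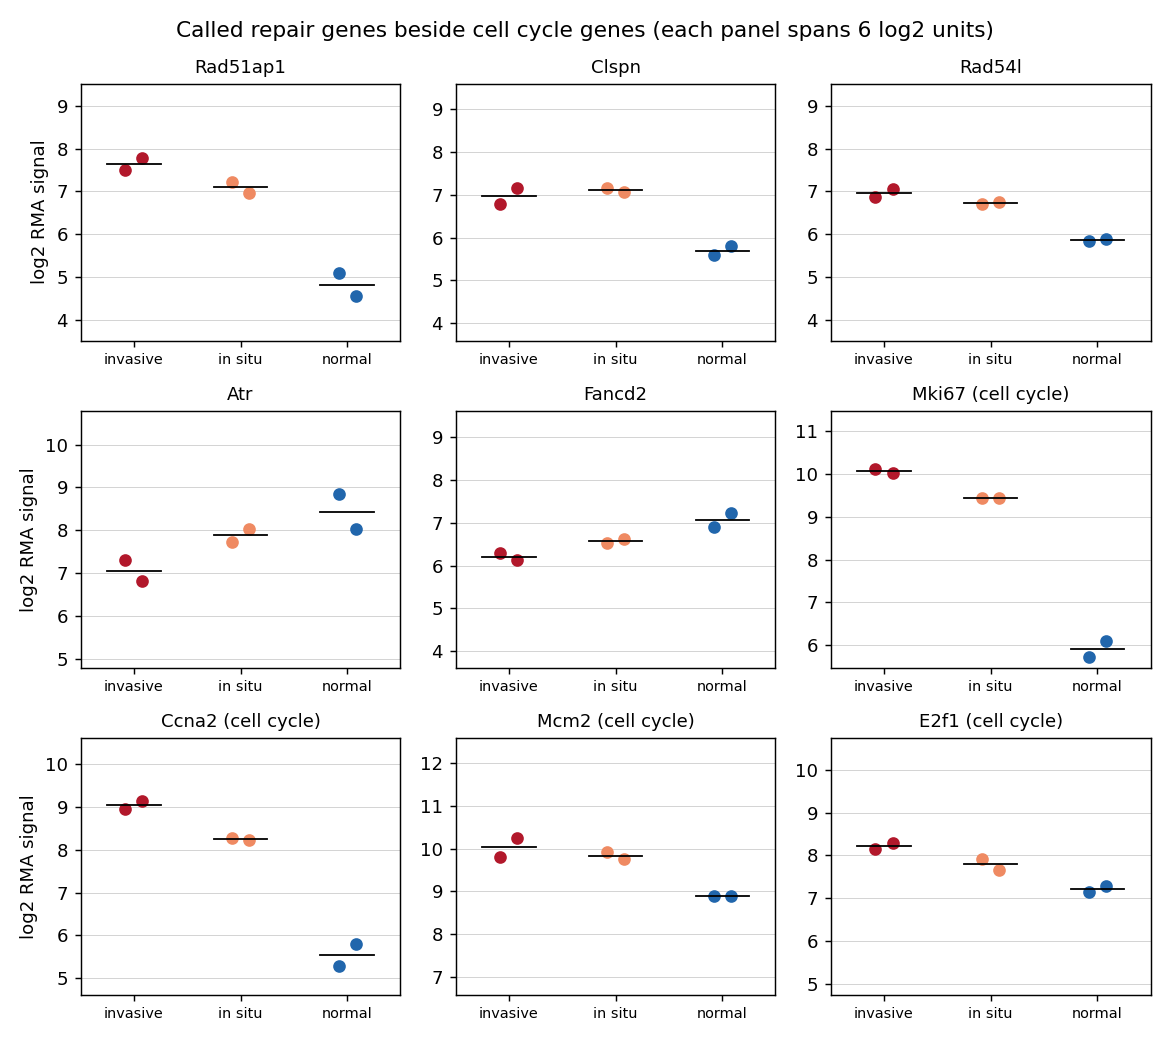
Log2 RMA signal of the 5 called repair genes and of 4 cell cycle genes, with 1 point per array, a bar at the mean of the 2 arrays and panels of equal height. In Rad51ap1, Clspn and Rad54l both normal arrays lie below all lesion arrays, as they do in Mki67 and Ccna2, while Atr and Fancd2 are lowest in the invasive arrays.

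Brca1 and Exo1 lay above normal urothelium without passing the test. Brca1, the scaffold that starts recombination and the gene of inherited breast and ovarian cancer in humans, read 7.65 and 7.04 on the invasive arrays, 7.17 and 7.42 on the in situ arrays and 6.68 and 5.81 on the normal arrays. Its differences from normal urothelium were 1.11 ± 0.36 in invasive carcinoma (adjusted p = 0.0867) and 1.06 ± 0.36 in carcinoma in situ (adjusted p = 0.141), and its other 3 probe sets differed by between -0.02 and 0.12 in invasive carcinoma. Exo1, a nuclease that trims broken ends and mispaired strands, read 5.62 and 5.43 on the invasive arrays, 5.59 and 6.01 on the in situ arrays, and 4.86 and 4.10 on the normal arrays. Its differences were 1.05 ± 0.30 in invasive carcinoma (adjusted p = 0.0640) and 1.32 ± 0.30 in carcinoma in situ (adjusted p = 0.0550), and 1 further Exo1 probe set rose by 1.20 in carcinoma in situ.

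The other recombination genes differed less. Brip1, a helicase that binds Brca1, differed from normal urothelium by 0.67 ± 0.25 in invasive carcinoma and 0.73 ± 0.25 in carcinoma in situ, and Rad54b, a relative of Rad54l, by 0.42 ± 0.21 and 0.58 ± 0.21, with all lesion arrays above both normal arrays and no call. Brca2, a mediator of strand exchange, differed by 0.34 (95% interval -0.08 to 0.75) in invasive carcinoma and 0.02 (-0.40 to 0.44) in carcinoma in situ. Palb2, which joins Brca1 to Brca2, differed by -0.08 (-0.46 to 0.31) and -0.19 (-0.58 to 0.19), and the helicase gene Blm by 0.08 in both (-0.33 to 0.48 in each). Bard1, the partner of Brca1, and Xrcc3, another recombination gene, had normal arrays 0.70 and 0.74 log2 units apart, and all their differences between groups lay within 0.16 of 0.

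The 5 Fanconi anaemia genes, whose products clear crosslinks between the strands, had 1 call, a fall of Fancd2 in invasive carcinoma against normal urothelium. Fancd2, the protein that the pathway marks with ubiquitin at a crosslink, read 6.30 and 6.12 on the invasive arrays, 6.53 and 6.62 on the in situ arrays, and 6.89 and 7.22 on the normal arrays. The groups did not overlap, and the invasive arrays were the lowest. Fancd2 fell by 0.85 ± 0.19 in invasive carcinoma against normal urothelium (1.80-fold, adjusted p = 0.0280). The call held in 8 of 18 alternatives. It was lost, among others, without either in situ array, without either invasive array and with the replicate number as a block (adjusted p = 0.0517). In carcinoma in situ its difference of -0.48 ± 0.19 did not pass (adjusted p = 0.187). A further Fancd2 probe set fell by 0.87 in invasive carcinoma and by 0.80 in carcinoma in situ against normal urothelium, with all probe sets tested.

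Fanci, the partner of Fancd2, lay the other way, at 6.62 and 6.68 on the invasive arrays, 6.80 and 6.60 on the in situ arrays and 6.17 and 6.17 on the normal arrays. Its differences of 0.48 ± 0.16 in invasive carcinoma (adjusted p = 0.0967) and 0.53 ± 0.16 in carcinoma in situ (adjusted p = 0.113) did not pass. Fanca, a subunit of the complex that attaches the ubiquitin, read 7.23 and 7.04 on the invasive arrays, 7.16 and 7.07 on the in situ arrays and 8.23 and 7.67 on the normal arrays. All lesion arrays were below both normal arrays, with adjusted p = 0.0621 for invasive carcinoma and 0.0910 for carcinoma in situ. Fancl, the ubiquitin ligase of that complex, and Fancc, another subunit, differed from normal urothelium by -0.37 (95% interval -0.80 to 0.06) and 0.31 (-0.21 to 0.83) in invasive carcinoma, and by -0.03 (-0.46 to 0.40) and 0.17 (-0.35 to 0.69) in carcinoma in situ.

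End joining, single-strand break repair, mismatch repair and nucleotide excision repair had 0 calls among their 7 genes. Xrcc5 and Xrcc6 encode the Ku proteins, which clamp broken ends for end joining. Xrcc5 read 7.87 and 6.95 on the invasive arrays and 8.66 and 8.97 on the in situ arrays, and the normal arrays, at 8.49 and 7.21, spanned most of that range. Its difference between invasive carcinoma and carcinoma in situ was the widest of the 33 genes, -1.40 ± 0.50, and missed the threshold (adjusted p = 0.212), although it was called in 5 of 19 alternatives. Xrcc6 read 8.18 on both invasive arrays, 7.86 and 8.00 on the in situ arrays, and 7.80 and 6.94 on the normal arrays, and its difference of 0.81 ± 0.30 in invasive carcinoma against normal urothelium did not pass (adjusted p = 0.124). The further Xrcc6 probe set lay the other way, at -0.75 in invasive carcinoma and -0.62 in carcinoma in situ, with no call. Msh6, which recognises mispaired bases, read 9.43 and 8.59 on the invasive arrays, 9.44 and 9.71 on the in situ arrays, and 8.39 and 7.11 on the normal arrays. All lesion arrays lay above both normal arrays, by 1.26 ± 0.48 in invasive carcinoma (adjusted p = 0.135) and 1.83 ± 0.48 in carcinoma in situ (adjusted p = 0.0809).

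Ercc1, part of the nuclease that cuts out bulky adducts, read 9.84 and 9.86 on the invasive arrays, 10.33 and 10.28 on the in situ arrays, and 9.72 and 9.61 on the normal arrays. The in situ arrays were the highest, with differences of 0.64 ± 0.15 from normal urothelium (adjusted p = 0.0599) and invasive carcinoma lay -0.46 ± 0.15 from carcinoma in situ (adjusted p = 0.178). Ercc2, a helicase that opens DNA around an adduct, differed from normal urothelium by 0.60 ± 0.24 in invasive carcinoma (adjusted p = 0.142) and by 0.54 ± 0.24 in carcinoma in situ (adjusted p = 0.235). Parp1, which marks strand breaks with chains of ADP-ribose, and Xrcc1, the scaffold of single-strand break repair, had normal arrays 0.99 and 1.02 log2 units apart. Parp1 differed from normal urothelium by -0.20 (95% interval -1.08 to 0.67) in invasive carcinoma and by 0.11 (-0.77 to 0.99) in carcinoma in situ, and Xrcc1 by 0.13 (-0.75 to 1.01) and 0.10 (-0.78 to 0.98). With all probe sets tested, 1 further Parp1 probe set, the dimmest of 4, fell by 1.12 in invasive carcinoma. Those with means of 8.48 and 8.39 differed from normal urothelium by 0.90 and 1.11 in carcinoma in situ. In invasive carcinoma they differed by 0.28 and -0.15, and neither was called in either lesion.

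**Figure D3:**
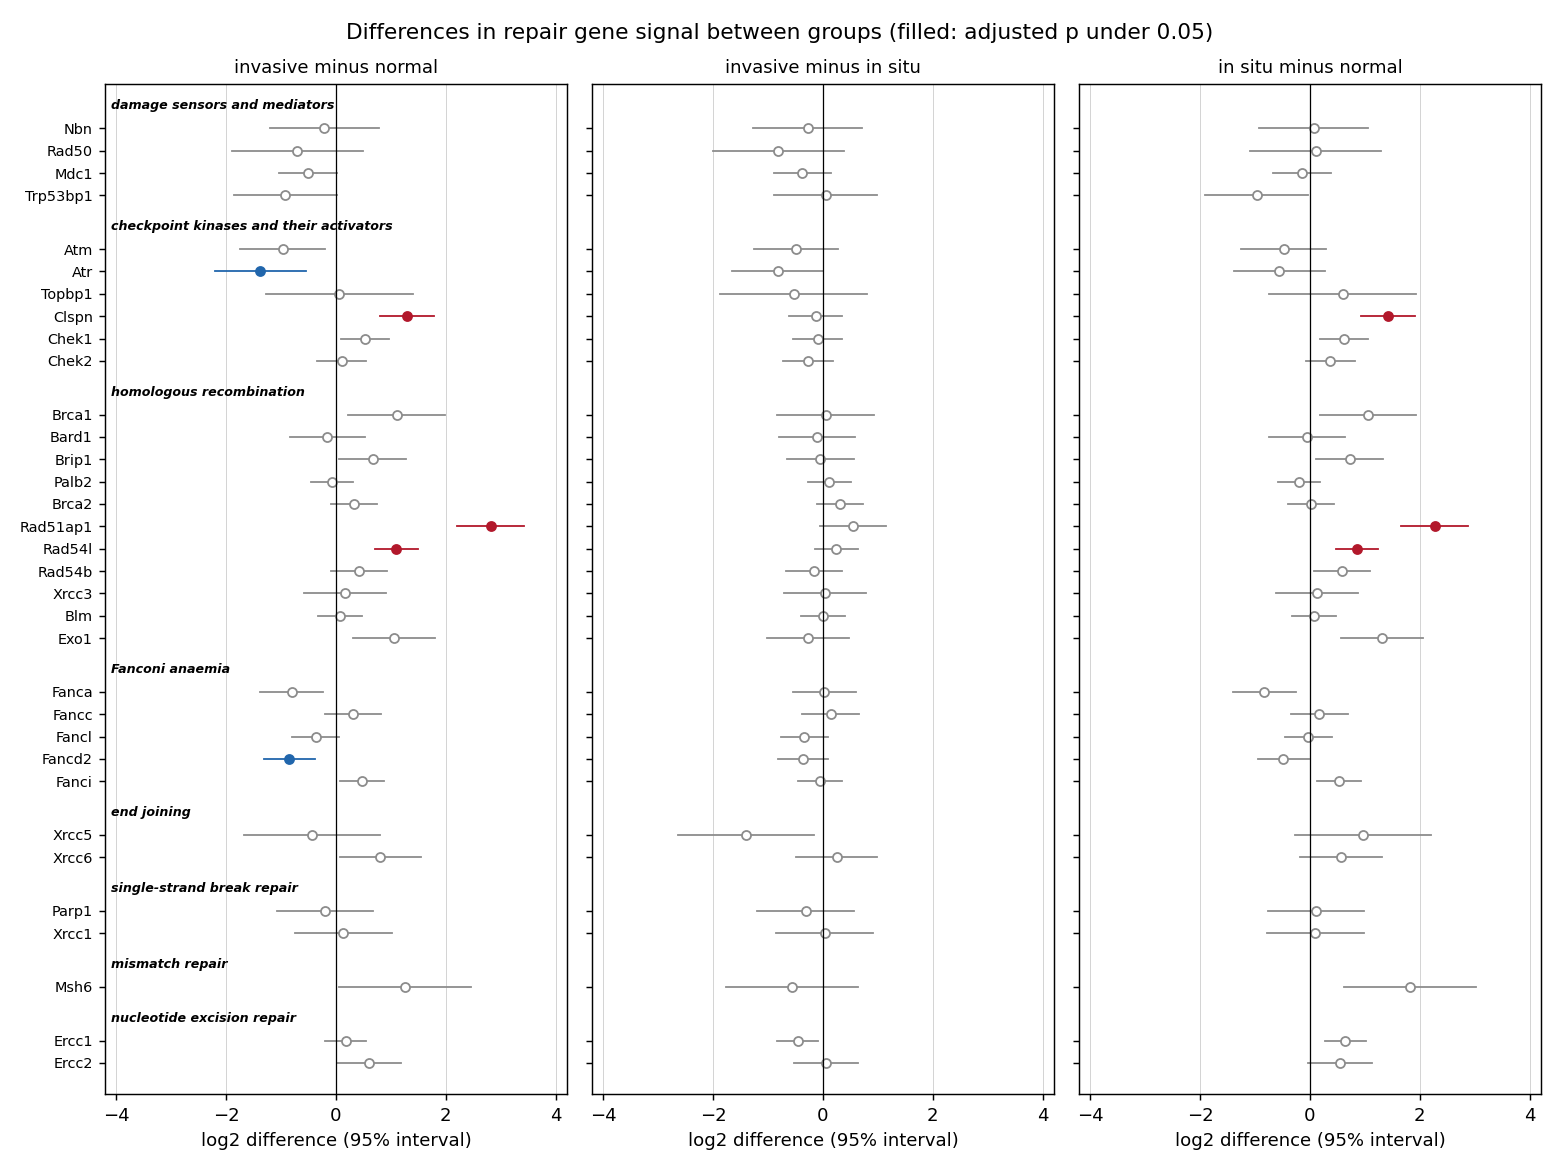
Log2 differences of the 33 repair genes with 95% intervals, by role, for invasive minus normal, invasive minus in situ and in situ minus normal. Filled points have an adjusted p under 0.05 and number 5, 0 and 3.

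Counted by arrays alone, 15 of the 33 genes had both invasive arrays above both normal arrays and 7 had both below, where 29.7% and 27.1% of all genes did. For carcinoma in situ against normal urothelium the counts were 15 and 4, where 29.3% and 25.1% of all genes did. Between invasive carcinoma and carcinoma in situ 6 genes had both invasive arrays above and 13 both below, where 26.4% and 31.4% of all genes did. The mean was lower in invasive carcinoma for all 6 checkpoint genes, for 21 of the 33 genes and for 9760 of all 18193 genes. Of the 6 checkpoint genes 0 were called there. The 95% interval of the difference lay within 1 log2 unit of 0 for 12 of the 33 genes in invasive carcinoma against normal urothelium, for 23 in invasive carcinoma against carcinoma in situ and for 13 in carcinoma in situ against normal urothelium. Of all 18193 genes 9205, 11238 and 10112 had such an interval. The interval held both 0 and a 2-fold difference for 8, 9 and 8 repair genes in these comparisons (3498, 4006 and 4104 of all genes). At this number of arrays the differences of these repair genes could be told apart from neither.

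Of the 33 genes 21 had more than 1 probe set, 76 in all. Among the 43 further ones, 1 rose and 5 fell in invasive carcinoma against normal urothelium, 2 rose and 3 fell in carcinoma in situ against normal urothelium and 0 were called between the lesions, with 0 called against the direction of the main probe set. The one that rose in both lesions was of Rad51ap1. For Clspn the further probe set showed -0.02 in invasive carcinoma against normal urothelium and had no call, and the mean of its probe sets (0.64) was not called.

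**Figure D4:**
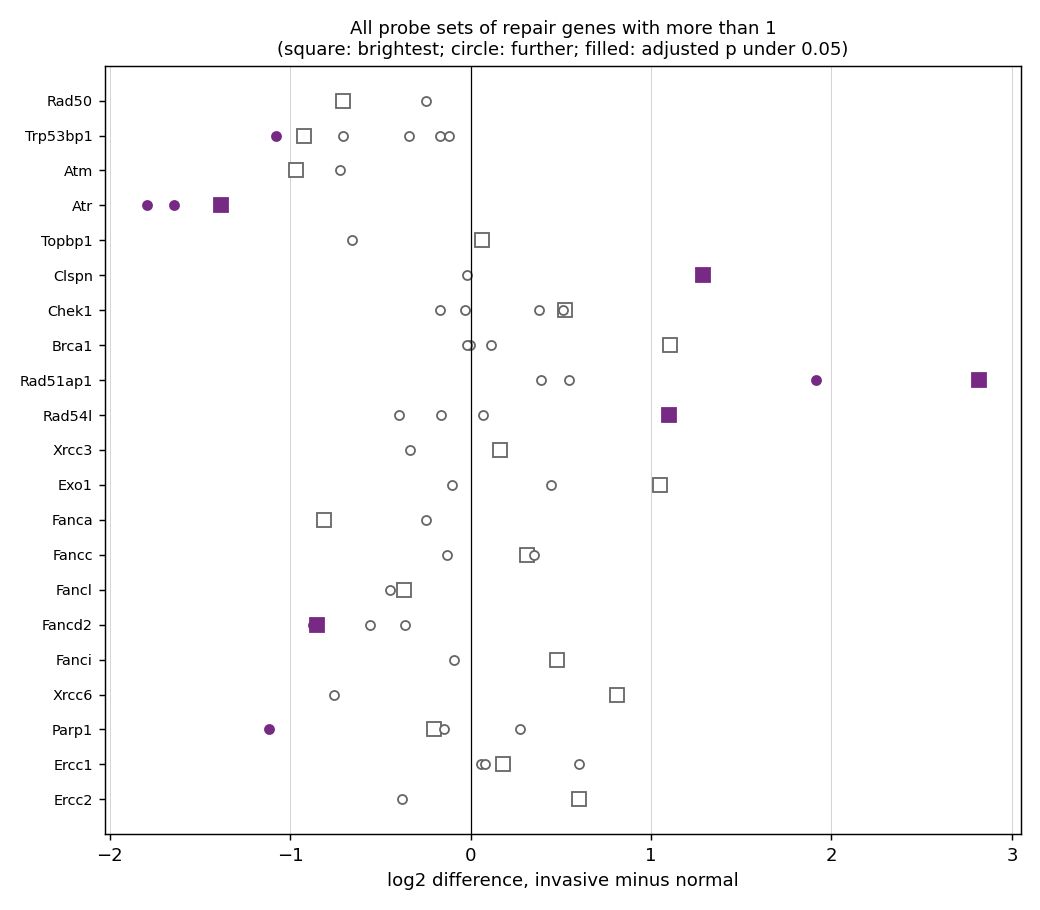
Log2 difference between invasive carcinoma and normal urothelium for every probe set of the 21 repair genes with more than 1, with the brightest as a square and further ones as circles. Filled symbols have an adjusted p under 0.05 with all probe sets tested: the 3 probe sets of Atr lie together below 0, and those of Rad54l and Brca1 lie apart.

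Other genes of the same pathways came from a list of 130, of which 112 were measured. In invasive carcinoma against normal urothelium 18 rose (16.1%, against 12.6% of all genes) and 10 fell (8.93%, against 7.46%). In carcinoma in situ against normal urothelium 12 rose (10.7%, against 5.74% of all genes) and 2 fell (1.79%, against 3.04%). Between the lesions 1 rose and 0 fell. The median of the 112 was 0.17 in invasive carcinoma against normal urothelium and 0.25 for carcinoma in situ against normal urothelium, near the 0.13 and 0.17 of the 33 genes.

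The largest rise in invasive carcinoma was of Ung, the glycosylase that takes uracil out of DNA, at 8.10 and 8.36 on the invasive arrays, 7.64 and 7.37 on the in situ arrays, and 5.64 and 5.78 on the normal arrays. It rose by 2.52 ± 0.19 (adjusted p = 0.00108) and, in carcinoma in situ, by 1.79 ± 0.19 (adjusted p = 0.00802). Swi5 and Sfr1, whose products form a complex in recombination, rose together, by 1.56 and 1.52 in invasive carcinoma and by 2.13 and 1.92 in carcinoma in situ. Dbf4, which activates the kinase that fires replication origins, Rad51b, a recombination gene, and Rpa2, a subunit of the protein that coats single-stranded DNA, rose by 1.90, 1.77 and 1.66 in invasive carcinoma. In carcinoma in situ Gadd45a, a damage response gene, Lig1, the ligase of replication and repair, and Rad1, a subunit of a clamp that activates Atr, rose by 1.75, 1.49 and 1.33.

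Fancb, a subunit of the Fanconi complex, fell the most, at 5.98 and 5.94 on the invasive arrays, 6.21 and 6.24 on the in situ arrays, and 7.86 and 8.00 on the normal arrays. It fell by 1.97 ± 0.15 in invasive carcinoma (adjusted p = 0.00124) and by 1.70 ± 0.15 in carcinoma in situ (adjusted p = 0.00603). Uimc1, which brings a Brca1 complex to breaks, fell by 1.34 in invasive carcinoma and by 1.18 in carcinoma in situ. In invasive carcinoma Rif1, which works with Trp53bp1, fell by 1.39, Polb, the polymerase of base excision repair, by 1.33, Pms1, a mismatch repair gene, by 1.14, and Prkdc, the kinase that Ku recruits to broken ends, by 0.89. Between the lesions the 1 gene called was Rad51b, 5.76 and 5.69 on the invasive arrays against 4.77 and 4.98 on the in situ arrays, higher by 0.85 ± 0.16 (adjusted p = 0.0434), a call lost over the mean of its probe sets (0.42).

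Cell cycle genes stood beside these values. Of 23 S phase genes 14 rose and 1 fell in invasive carcinoma against normal urothelium (median 1.14) and 12 rose and 0 fell in carcinoma in situ (median 1.24). Of 18 mitosis genes 17 rose in invasive carcinoma (median 3.13) and 14 in carcinoma in situ (median 2.54). The proliferation marker Mki67 rose by 4.16 ± 0.18 in invasive carcinoma and by 3.52 ± 0.18 in carcinoma in situ, and Ccna2, a cyclin of S phase and mitosis, by 3.50 ± 0.22 and 2.72 ± 0.22. Mcm2, a subunit of the replication helicase, rose by 1.14 ± 0.20 and 0.95 ± 0.20. E2f1, a transcription factor of S phase genes, rose by 1.01 ± 0.18 in invasive carcinoma, and its 0.57 ± 0.18 in carcinoma in situ did not pass (adjusted p = 0.118). The part of the cell cycle genes in the changes of the repair genes was not tested.

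**Figure D5:**
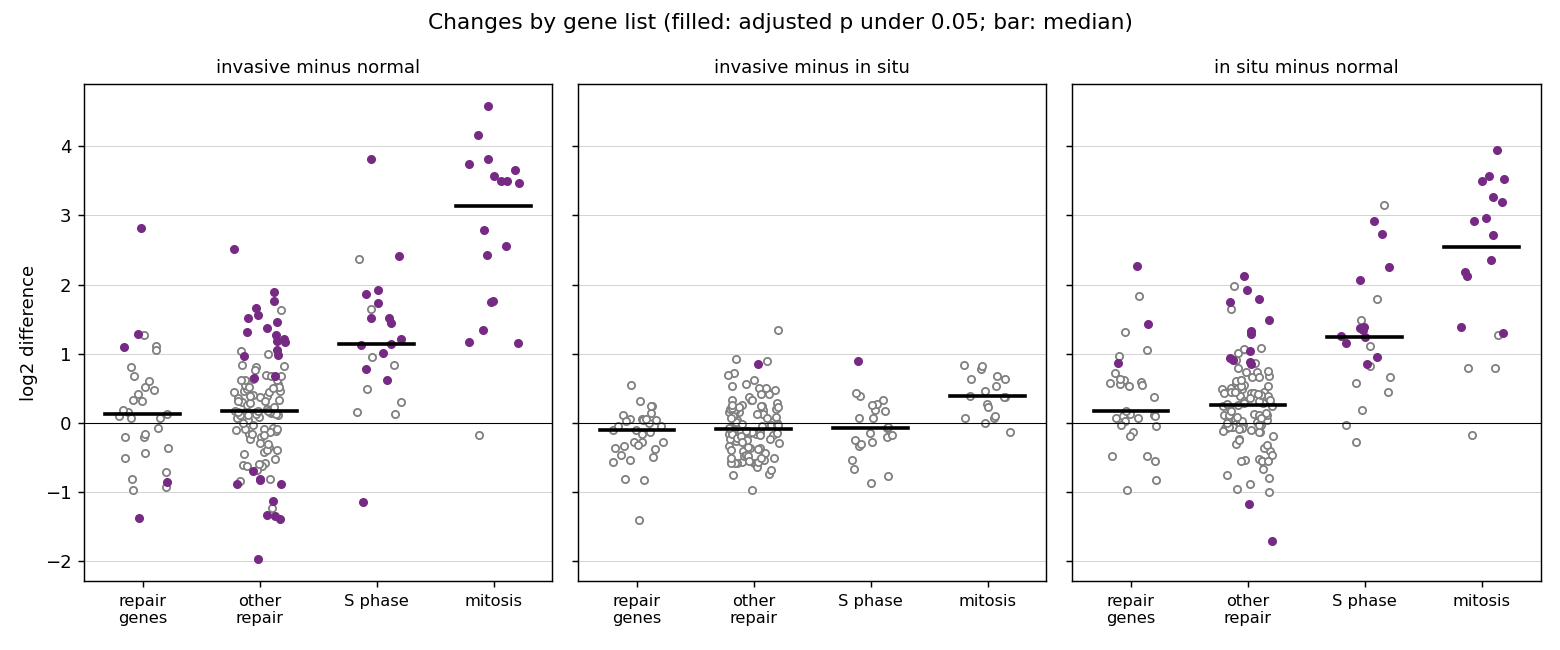
Log2 differences of the 33 repair genes, 112 other repair genes, 23 S phase genes and 18 mitosis genes, with 1 point per gene, filled where the adjusted p is under 0.05, and a bar at each median. The medians of both repair lists lie between -0.11 and 0.25 in all 3 comparisons, and those of the mitosis genes at 3.13, 0.38 and 2.54.

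Markers of other cells also differed between the groups. The mean of 10 fibroblast markers was 9.52 and 10.9 on the invasive arrays, 6.52 and 6.50 on the in situ arrays, and 7.42 and 6.97 on the normal arrays, and 6 of 10 rose in invasive carcinoma against each of the other groups. Of 7 macrophage markers 6 rose in invasive carcinoma against normal urothelium (means 9.68 and 10.4 on the invasive arrays, 8.10 and 8.09 on the in situ arrays, 6.85 and 6.98 on the normal arrays). Of 8 endothelial markers 8 rose in invasive carcinoma and 4 for carcinoma in situ against normal urothelium (means 7.39 and 7.51 on the invasive arrays, 7.29 and 7.29 on the in situ arrays, 5.61 and 5.28 on the normal arrays). Of 17 urothelial markers 7 fell and 1 rose in invasive carcinoma against normal urothelium, and 3 fell and 2 rose in carcinoma in situ. Their part in the changes of Rad51ap1, Clspn, Rad54l, Atr and Fancd2 was not tested.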

How the data were processed

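Gene expression was measured on 6 arrays, 2 from each of 3 groups taken from the sample titles. Per the labels' protocols, cells were captured by laser from frozen sections and 100 ng of RNA per sample was labelled for Affymetrix 3' expression arrays. Per the submitters' processing notes, the authors used Partek and RMA, with no version given, and the deposited log2 values were used as they stood. No source used here gives a genome build for the deposited array values. Of 45101 probe sets 34958 had 1 gene symbol in the annotation table, 932 several and 9211 none.

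A single model of the 3 group means was fitted to all arrays with limma 3.58.1 (R 4.3.3) and eBayes (3 residual and 2.69 prior degrees of freedom), with no filter on dim genes. P-values are two-sided, with Benjamini-Hochberg adjustment across 18193 genes, and a call needs an adjusted p under 0.05. Errors of differences are the model's standard errors, and folds are powers of 2 of the differences. The model was tried on simulated data in which all arrays of a gene had a common spread. The groups here differed in spread, so that trial does not bear on the calls. The 19 alternatives changed the normalization, the probe sets, the filter, the variance model, the arrays in the fit and the pairing.

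All 33 genes are named, with array values for those called, and per comparison up to 6 called genes in each direction from the other repair list. The members, the lists, the promoter motifs and the alternatives were chosen with earlier results of these data known. Promoter windows come from RefSeq on GRCm38.p6 and matched 28 of the 33 genes by gene identifier.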

Additional observations from a re-analysis of the deposited data

How the results depend on the processing

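The main counts of called repair genes were 5 in invasive carcinoma against normal urothelium, 0 between the lesions and 3 for carcinoma in situ against normal urothelium. For the first, quantile normalizing again gave 9 (3 up, 6 down), centring each array on its gene median 8, the mean of probe sets 3, leaving out dim genes 1 of 17 tested, array weights 3, the 4 arrays compared alone 3, the unmoderated model 2 and averaging the in situ arrays 3. Between the lesions array weights gave 1 (Xrcc5), and the 4 arrays alone gave 2 (Rad50 and Xrcc5). In carcinoma in situ against normal urothelium limma called 0 without dim genes (4 at an unadjusted p under 0.05), 0 with the in situ arrays averaged (6), and the unmoderated model called 0 (8). Leaving out 1 array at a time gave 1 to 10, 0 to 2 and 0 to 12 calls in these comparisons, and leaving out normal array 2 and invasive array 1 together 16, 8 and 21. A group left with 1 array is assumed to vary like the others. The share of all genes called under each alternative is not given here. The counts under the alternatives thus do not set repair genes apart from other genes. The median change in invasive carcinoma against normal urothelium was -0.14 after centring and -0.21 without dim genes. For the called genes named, 0 changes reversed, 508 kept their call and 163 lost it over all alternatives.

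With the replicate number as a block, 4, 0 and 2 repair genes were called. Deviations of arrays with the same number correlated at -0.34 (invasive and in situ), 0.37 (invasive and normal) and -0.39 (in situ and normal). With 2 arrays per group these values cannot show whether arrays with the same number belong together, and no label pairs them. Of the 33 genes 16 had a mean under that of the median gene, where RMA understates folds.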
